A study of Rattus norvegicus with 8 samples.

Results

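The auxiliary subunits of the AMPA receptor were followed as newly made RNA in cultured rat neurons with and without a history of silencing. They were taken by gene symbol: Cacng2, Cacng3, Cacng4, Cacng5, Cacng7, Cacng8, Cnih2, Cnih3, Syndig1 and Shisa9. Of these 10 genes, 9 were found among the 16871 gene symbols counted, and all 9 passed the low-count filter that left 11372 genes to test. Shisa9 was not analysed here.

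The cells were neurons of hippocampus and cortex grown in one culture from Sprague Dawley rat pups of postnatal day 1 to 2. The sample titles name a hippocampal neuron culture only. Every culture had a first treatment of 24 h from day 14 in vitro, a washout of 48 h and a second treatment of 4 h on day 17. In group TT both treatments were 1 µM tetrodotoxin (TTX), a toxin that blocks voltage-gated sodium channels and so stops action potentials. Group TH had TTX first and vehicle (water) second, group HT had vehicle first and TTX second, and group HH had vehicle both times. All groups took up 2 mM bromouridine (BrU) during the last 30 min, and the RNA that carried it, made in that window, was isolated and sequenced (BrU-seq). Each group had 2 libraries, which the labels do not describe as separate cultures or animals, so a p-value here speaks only of how far these libraries spread, and that spread may be technical.

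AMPA receptors carry most fast excitatory transmission in the brain, and each is an assembly of 4 pore-forming subunits, encoded by Gria1, Gria2, Gria3 and Gria4, with auxiliary proteins around them. Auxiliary proteins can help the receptor leave the endoplasmic reticulum, reach the surface or anchor at the synapse, and some of them slow its closing and desensitization. The transmembrane AMPA receptor regulatory proteins (TARPs) are of type I (Cacng2, Cacng3, Cacng4 and Cacng8) or type II (Cacng5 and Cacng7), the cornichons Cnih2 and Cnih3 descend from proteins that export cargo from the endoplasmic reticulum, and Syndig1 is a transmembrane protein that binds AMPA receptors and promotes the growth of excitatory synapses. Prolonged silence with TTX is a standard way to evoke homeostatic scaling, in which neurons take more AMPA receptors to their synapses, and the present design asks whether an earlier bout of silence alters transcription in a later one.

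Promoters are shown for the 3 genes that mark the ends of what follows: Syndig1 and Cacng3, whose levels spread most between libraries, and Cacng2, whose level spread least. Each sequence runs from 250 bases before to 50 bases after the RefSeq start in build GRCr8, 5′ to 3′ along the gene, and capitals mark CpG dinucleotides.
Syndig1 (chr3:158492040-158492339, plus strand): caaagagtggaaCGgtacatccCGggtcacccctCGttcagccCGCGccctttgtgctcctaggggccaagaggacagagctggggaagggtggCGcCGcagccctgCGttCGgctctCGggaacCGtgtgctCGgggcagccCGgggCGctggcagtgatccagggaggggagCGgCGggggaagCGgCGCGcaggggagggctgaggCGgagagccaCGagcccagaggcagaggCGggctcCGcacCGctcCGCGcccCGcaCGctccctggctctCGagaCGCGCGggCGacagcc
Cacng3 (chr1:186632312-186632611, plus strand): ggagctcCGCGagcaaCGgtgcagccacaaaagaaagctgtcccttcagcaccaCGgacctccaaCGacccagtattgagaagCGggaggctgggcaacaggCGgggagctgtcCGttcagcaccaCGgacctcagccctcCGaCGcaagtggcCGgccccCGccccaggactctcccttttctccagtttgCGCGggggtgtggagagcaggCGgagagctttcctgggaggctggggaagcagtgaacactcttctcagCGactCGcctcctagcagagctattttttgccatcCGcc
Cacng2 (chr7:111577708-111578007, minus strand): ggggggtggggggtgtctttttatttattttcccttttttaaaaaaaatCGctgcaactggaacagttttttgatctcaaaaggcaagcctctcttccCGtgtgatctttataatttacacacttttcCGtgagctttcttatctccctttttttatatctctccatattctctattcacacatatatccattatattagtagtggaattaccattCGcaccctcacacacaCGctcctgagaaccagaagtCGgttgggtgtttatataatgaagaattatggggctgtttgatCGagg
The Syndig1 promoter was 73.3% G and C with 33 CpGs, more than in 92.5% of all promoters of that length. The Cacng3 promoter was 63.0% G and C with 19 CpGs, and the Cacng2 promoter, with its long runs of A and T, was 39.0% G and C with 7. The median of all promoters was also 7. Cnih3, which ranked 5 among the members in spread, had more CpGs than Syndig1, at 36. A link between CpG number and spread was not tested. Promoter entries were matched for 7 of the 10 members, leaving Cacng4, Cacng7 and Shisa9 named only. Binding motifs of factors that act on activity-regulated genes were searched on both strands of the 7 promoters: the full cyclic AMP response element TGACGTCA, its partial form TGACG, which the full one contains, the AP-1 motif TGANTCA, the CArG box and the MEF2 site. None of the 7 held any of them, while 1.83%, 21.2%, 7.33%, 1.64% and 0.565% of the 33469 promoters of the same length did, in that order of motifs. The motifs were chosen after the levels had been seen.

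The libraries held between 3489176 and 4959887 counted reads, of which the 9 members together took 2668 to 3761, or 0.0753% to 0.0921%. HH replicate 1 stood apart from the rest. All 16 activity-response genes listed were highest there, and the transcription factor gene Fos stood at 37.0 CPM (reads of a gene per 1000000 of the TMM-adjusted library size) in HH replicate 1 against 5.74 in HH replicate 2. Between replicates, 155 genes differed by more than 2-fold in TT, 180 in TH, 281 in HT and 546 in HH. Markers of excitatory neurons were present in every library (9 genes summing to 1053 to 1436 CPM), and so were those of inhibitory neurons (12 genes, 751 to 1326 CPM), astrocytes (10 genes, 1491 to 2130 CPM) and the oligodendrocyte lineage (12 genes, 721 to 1688 CPM). Microglia markers drew few reads, with 8 genes summing to 10.9 to 17.1 CPM and Aif1, a defining one, at 0 in 4 libraries. These sums are not adjusted for gene length, so they do not rank the cell types.

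None of the 9 auxiliary subunits passed the adjusted threshold of 0.05 in any of the 7 comparisons fitted, and neither did any other gene (edgeR's quasi-likelihood test, Benjamini-Hochberg adjustment over 11372 genes, 0% called in each comparison). The second TTX was tested without a history (HT against HH) and with one (TT against TH), and the history without the second TTX (TH against HH) and with it (TT against HT). The other 3 comparisons were the interaction and each treatment averaged over the other. The levels and differences are therefore given as descriptions with their errors. At an unadjusted p under 0.05 the second TTX gave 1 member in HT against HH (6.49% of all genes) and 0 in TT against TH (2.64%). The history gave 2 members in TH against HH (4.08%) and 0 when TT was set against HT (2.35%). Averaged over the other treatment, 1 member met that p for the second TTX (6.94%) and 2 for the history (5.75%), and none for the interaction (1.64%). DESeq2 and limma-voom also called none of the 9.

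**Figure D1:**
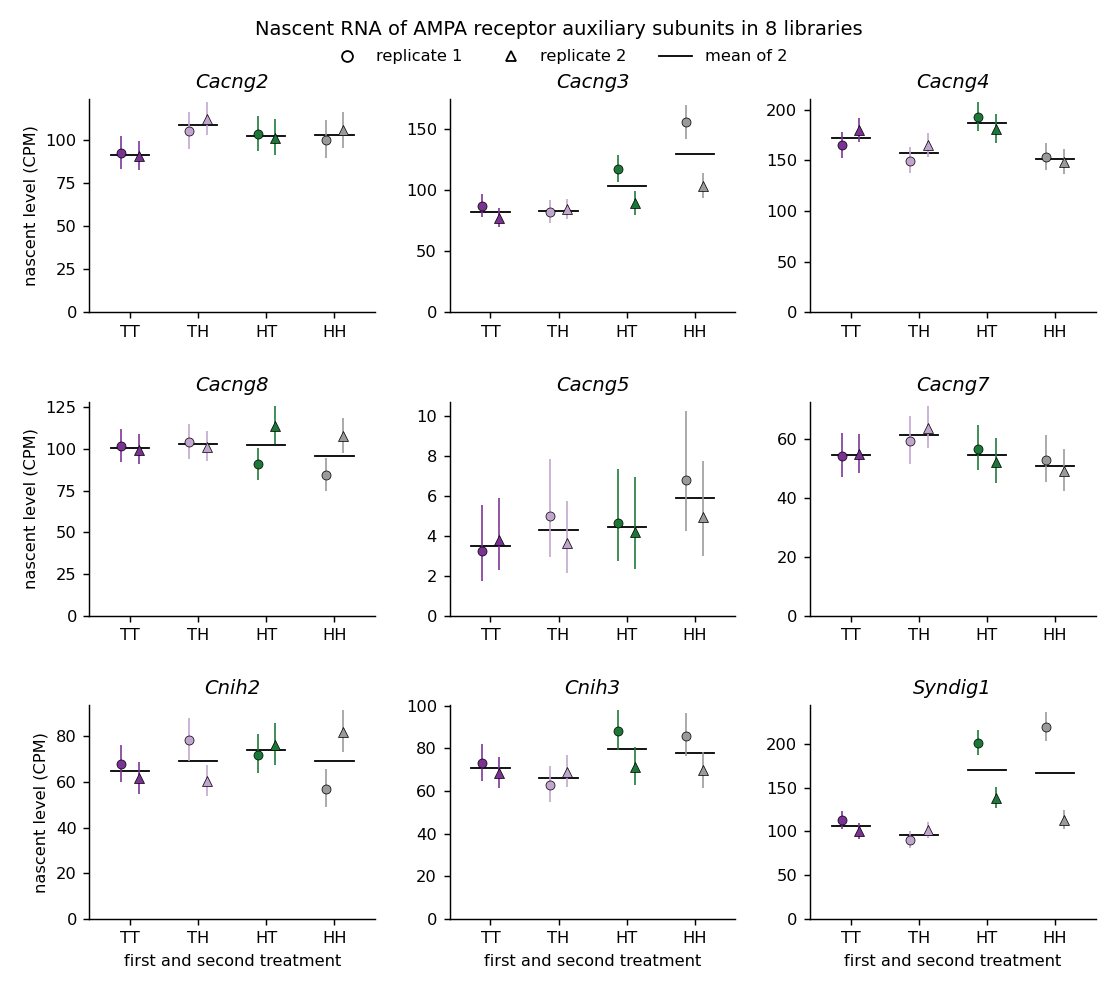
Level of each of the 9 auxiliary subunits in each library (CPM, y axis from 0, scaled per panel), with the groups TT, TH, HT and HH along the x axis; points are libraries, short lines the mean of 2, and bars 95% exact Poisson intervals for counting error only. Cacng2 keeps within 91.0 to 113 CPM, while Syndig1 reaches 220 CPM in HH replicate 1 and 201 CPM in HT replicate 1 and lies between 90.6 and 139 CPM elsewhere.

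Among the type I TARPs, Cacng2 encodes stargazin, the founding member, which carries AMPA receptors to the surface and ties them to the scaffold PSD-95. Its new RNA stood at 92.4 and 91.0 CPM in TT, 106 and 113 CPM in TH, 103 and 102 CPM in HT, and 101 and 106 CPM in HH. Both TT libraries were the lowest of the 8, and the highest library exceeded the lowest by only 1.24-fold. With a history, the second TTX went with a log2 difference of -0.25 ± 0.12 (SE, TT against TH, adjusted p = 1.00 in edgeR). Without a history it was -0.01 ± 0.12 (HT against HH), with a 95% interval of -0.27 to 0.25. The groups ran from TT through HT and HH to TH in level, and no neighbours in that order differed by the test.

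Cacng8 encodes the TARP that predominates at hippocampal synapses. It stood at 102 and 99.6 CPM in TT, 104 and 101 CPM in TH, 90.8 and 114 CPM in HT, and 84.2 and 108 CPM in HH. The 4 group means lay between 96.1 and 103 CPM, closer together than the replicates of HT or HH, so the groups overlapped throughout. None of its pairwise log2 differences exceeded 0.094 in size, and their standard errors were all near 0.15.

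Cacng4 encodes a type I TARP that is also made by glia, including cells of the oligodendrocyte lineage. It stood at 165 and 179.9 CPM in TT, 149.7 and 165 CPM in TH, 193 and 181 CPM in HT, and 154 and 148 CPM in HH. Both HT libraries were above both HH libraries, while TT replicate 1 and TH replicate 2 were level. Averaged over history, Cacng4 stood at 179.8 ± 11.5 CPM with the second TTX and 154 ± 7.51 CPM without it (SD, n = 4 libraries each), a log2 difference of 0.22 ± 0.085 (SE, adjusted p = 0.628 in edgeR). The difference was 0.31 ± 0.12 in HT against HH (adjusted p = 0.747) and 0.13 ± 0.12 in TT against TH (adjusted p = 1.00).

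For the second TTX averaged over history, markers of the oligodendrocyte lineage lay in the same direction as Cacng4. So did 9 of 10 astrocyte markers, with a median log2 difference of 0.18. For the history, 10 of 11 oligodendrocyte lineage markers were above 0 while Cacng4 was at -0.03. In TT against HT, 8 of the 11 were above 0 while Cacng4 was at -0.12. The 12 listed genes summed to 1079 to 1688 CPM in TT, 903 to 1103 CPM in TH, 1028 to 1031 CPM in HT and 721 to 722 CPM in HH. Of the 11 tested, 10 were above 0 for the second TTX averaged over history, with a median log2 difference of 0.54 beside -0.0011 for all genes, and none passed the threshold. Gpr17, a receptor of immature oligodendrocytes, was at 0.91 ± 0.22, and Cspg4, the NG2 proteoglycan of their precursors, at 0.39 ± 0.086 (SE). Their part in the Cacng4 values was not tested. In a mixed culture, a change in the number of cells of a type and one in new RNA per cell cannot be told apart.

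**Figure D2:**
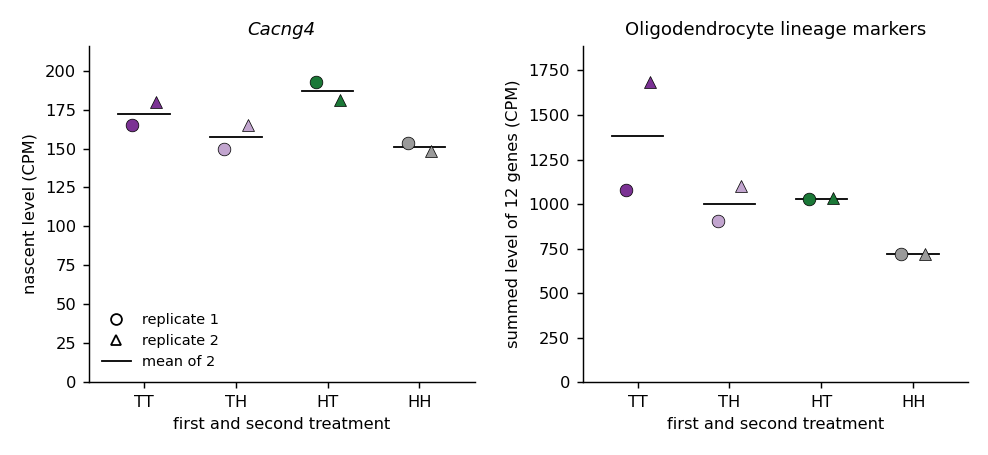
Level of Cacng4 (left) and the summed level of the 12 oligodendrocyte lineage markers (right), both in CPM from 0 on the y axis, in each library of TT, TH, HT and HH (x axis); points are libraries and lines the mean of 2. Cacng4 is highest in HT, at 193 and 181 CPM, while the markers are highest in TT replicate 2, at 1688 CPM, and lowest in the HH libraries.

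Cacng3 encodes a type I TARP found mainly in forebrain. It stood at 86.7 and 77.3 CPM in TT, 81.8 and 84.0 CPM in TH, 117 and 89.0 CPM in HT, and 155 and 103 CPM in HH. All 4 libraries with a TTX history were below all 4 without one, and within each of HT and HH replicate 1 was the higher, by 1.32-fold and 1.502-fold. Averaged over the second treatment, Cacng3 was at 82.4 ± 3.98 CPM with a history and 116 ± 28.4 CPM without (SD, n = 4 libraries each). The log2 difference was -0.48 ± 0.14 (SE, adjusted p = 0.814 in edgeR). It was -0.64 ± 0.19 in TH against HH (adjusted p = 0.891) and -0.33 ± 0.19 in TT against HT (adjusted p = 1.00).

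The type II TARPs alter AMPA receptor gating more weakly than type I. Cacng7 stood at 54.1 and 54.8 CPM in TT, 59.1 and 63.5 CPM in TH, 56.7 and 52.2 CPM in HT, and 52.7 and 49.0 CPM in HH. Both TH libraries were the highest of the 8, and the log2 difference was 0.27 ± 0.13 in TH against HH (adjusted p = 0.891 in edgeR) and -0.17 ± 0.13 in TT against TH. Cacng5 rested on only 13 to 22 counts a library. It stood at 3.24 and 3.78 CPM in TT, 4.97 and 3.64 CPM in TH, 4.66 and 4.21 CPM in HT, and 6.79 and 4.96 CPM in HH. The 95% counting interval of its highest library ran from 4.3 to 10.3 CPM and that of its lowest from 1.7 to 5.5 CPM, and the 2 intervals overlapped although the libraries lay 2.09-fold apart. Its log2 difference for the history was -0.39 ± 0.25 (SE, adjusted p = 0.816 in edgeR).

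The cornichons associate with AMPA receptors in the endoplasmic reticulum and at the surface, and slow their deactivation. Cnih2 stood at 67.8 and 61.6 CPM in TT, 78.2 and 60.3 CPM in TH, 71.9 and 76.4 CPM in HT, and 56.7 and 81.9 CPM in HH. Its lowest and highest libraries were both HH, 1.44-fold apart, so no group stood clear of HH. Cnih3 stood at 73.0 and 68.5 CPM in TT, 63.0 and 69.0 CPM in TH, 88.2 and 71.3 CPM in HT, and 86.0 and 69.6 CPM in HH. Replicate 1 of HT and of HH were its 2 highest libraries. The log2 difference for the history was -0.11 ± 0.13 for Cnih2 and -0.20 ± 0.11 for Cnih3 (SE, adjusted p = 0.913 and 0.814 in edgeR).

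Syndig1 varied most. It stood at 113 and 99.99 CPM in TT, 90.6 and 102 CPM in TH, 201 and 139 CPM in HT, and 220 and 113 CPM in HH. Its log2 levels spread more over the 8 libraries (SD 0.48) than in 98.4% of the 500 tested genes nearest to it in level, against 94.8% for Cacng3 and 17.6% for Cacng2. The spread was inside groups as well as between them, since the HH replicates differed 1.95-fold and the HT replicates 1.45-fold, and HH replicate 2 was level with TT replicate 1. With a history Syndig1 was at 101 ± 9.13 CPM and without one at 168 ± 50.6 CPM (SD, n = 4 libraries each). The log2 difference was -0.73 ± 0.22 (SE, adjusted p = 0.814 in edgeR), with -0.78 ± 0.31 in TH against HH (adjusted p = 0.891) and -0.68 ± 0.30 in TT against HT (adjusted p = 1.00). The second TTX went with 0.04 ± 0.30 in HT against HH and 0.14 ± 0.31 in TT against TH.

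**Figure D3:**
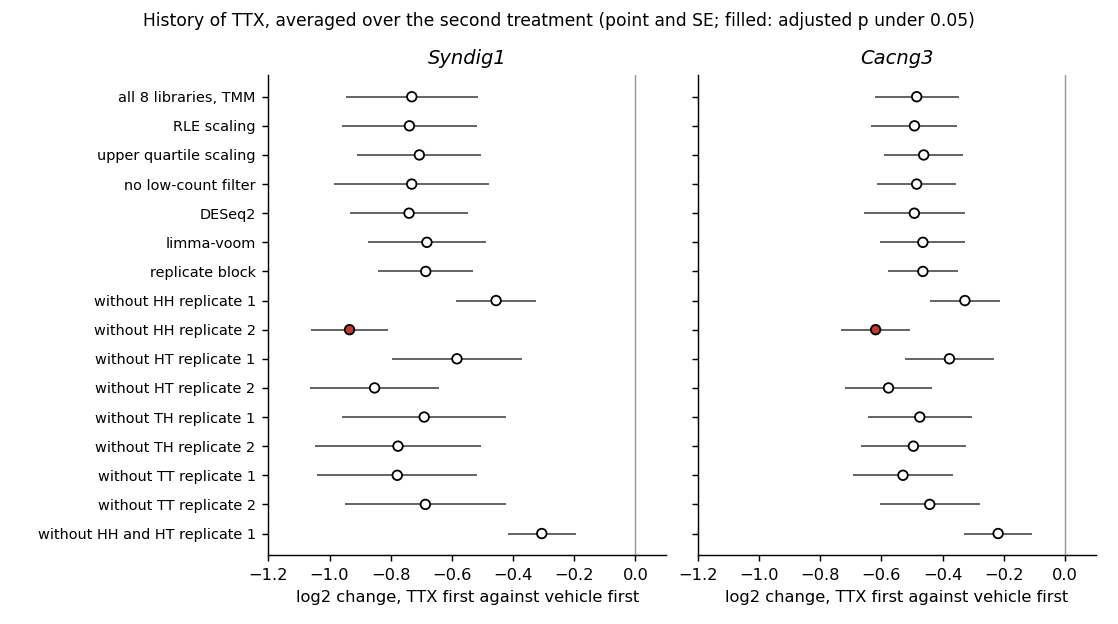
Log2 difference of the history averaged over the second treatment (x axis, point) with its standard error (bar) for Syndig1 (left) and Cacng3 (right), by the fit used (y axis), with filled points for an adjusted p under 0.05. For Syndig1 the estimate runs from -0.93 without HH replicate 2, to -0.31 without HH replicate 1 and HT replicate 1 together. For Cacng3 it runs from -0.62 to -0.22 in the same fits. The filled points are those without HH replicate 2, where HH replicate 1 was the only HH library.

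The history differences of Syndig1 and Cacng3 depended in size on single HH and HT libraries, among them the 2 in which activity-response genes were high. Without HH replicate 1 the Syndig1 difference was -0.46 ± 0.13 and the Cacng3 difference -0.33 ± 0.11. Without HH replicate 1 and HT replicate 1 together they were -0.31 ± 0.11 and -0.22 ± 0.11. Without HH replicate 2 they were -0.93 ± 0.13 and -0.62 ± 0.11. That fit left HH replicate 1 as the only HH library and assumed that it varied like the other groups. In TH against HH the Syndig1 difference was -0.23 ± 0.20 without HH replicate 1 and -1.19 ± 0.19 without HH replicate 2. The Cacng3 difference was -0.31 ± 0.18 and -0.90 ± 0.17. In TT against HT the Syndig1 difference was -0.38 ± 0.33 without HT replicate 1 and -0.92 ± 0.32 without HT replicate 2. The Cacng3 difference was -0.12 ± 0.23 and -0.52 ± 0.22. Each of these fits left a single library in HH, in HT or in both, so only sizes are given. The sign stayed below 0 for both genes in each of these fits. With all 8 libraries in, those with a history were already all below those without. Leaving out HH or HT libraries could therefore hardly turn the sign, and its staying is no separate evidence. The summed activity-response level was 455 to 481 CPM in TT, 456 to 488 CPM in TH, 478 to 654 CPM in HT and 464 to 1547 CPM in HH, and its part in the 2 differences was not tested.

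**Figure D4:**
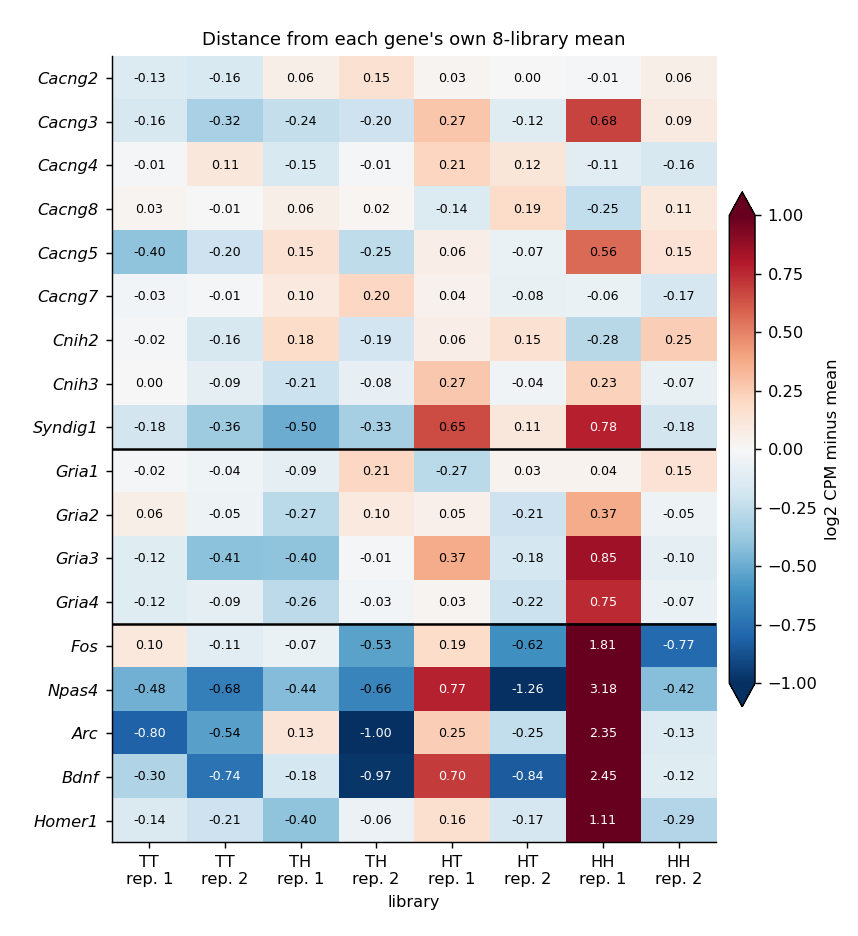
Deviation of each gene in each library from its own mean over the 8 libraries (log2 CPM, colour and printed value), with libraries along the x axis and, down the y axis, the 9 members, the 4 pore-forming subunits and 5 activity-response genes. In each TT library 1 of 9 members lies above its own mean, against 8 of 9 in HT replicate 1, and the activity-response genes are all highest in HH replicate 1.

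Viewed by library, most members were below their own mean in TT, although the lowest library was a TT one for only 3 of 9 (Cacng2, Cacng3 and Cacng5). In TT replicate 1 and in TT replicate 2, 1 of the 9 members was above its own mean, against 5 and 3 in TH, 8 and 5 in HT, and 4 and 5 in HH. In TT against HT all 9 log2 differences were below 0, from -0.68 for Syndig1 to -0.00087 for Cacng7, with a median of -0.17 beside 0.0004 for all genes, of which 50.1% were above 0. For Cacng2, Cacng3, Cacng4, Cacng5, Cnih2 and Syndig1 both TT libraries were below both HT libraries. These were 6 of 9 members beside 16.2% of all genes, and no member was above in both (18.2% of all genes). Some margins were narrow. TT replicate 2 and HT replicate 2 stood at 179.9 and 181 CPM for Cacng4 and 3.78 and 4.21 CPM for Cacng5. TT replicate 1 and HT replicate 2 stood at 86.7 and 89.0 CPM for Cacng3. Except for Syndig1, the counting intervals of the nearest TT and HT libraries overlapped in each of the 6. The same 6 members stood apart under 3 other ways of scaling the libraries, which were compared after the data had been seen. Over the alternative fits 8 or 9 of the 9 members were below 0 here. Those fits reuse the same libraries, so the repeated sign is no separate evidence, and with all 8 libraries no member passed the threshold.

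The other pairwise comparisons split the members both ways. In HT against HH, 6 were above and 3 below 0 (50.2% of all genes above), with Cacng4 higher in both HT libraries (18.6% of all genes) and Cacng5 lower in both (16.7%). In TT against TH, 3 were above and 6 below 0 (50.9% above), with Cacng4 higher in both TT libraries (15.9%) and Cacng2 and Cacng7 lower in both (14.1%). In TH against HH, 4 were above and 5 below 0 (50.2% above), with Cacng7 higher in both TH libraries (16.7%) and Cacng3, Cnih3 and Syndig1 lower in both (13.4%). Averaged over the second treatment, 2 were above and 7 below 0 for the history (50.0% above), and Cacng3 and Syndig1 had all 4 libraries with a history below all 4 without one (1.17% of all genes). For Syndig1 the nearest libraries, TT replicate 1 and HH replicate 2, were so close that the groups overlapped under plain library totals. Averaged over history, 4 were above and 5 below 0 for the second TTX (49.7% above), and Cacng4 alone had all 4 libraries with it above all 4 without (2.69%). That separation, and the one of Cacng4 in TT against TH, rested on TT replicate 1 and TH replicate 2, both at 165 CPM, and was lost under the relative log expression scaling.

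**Figure D5:**
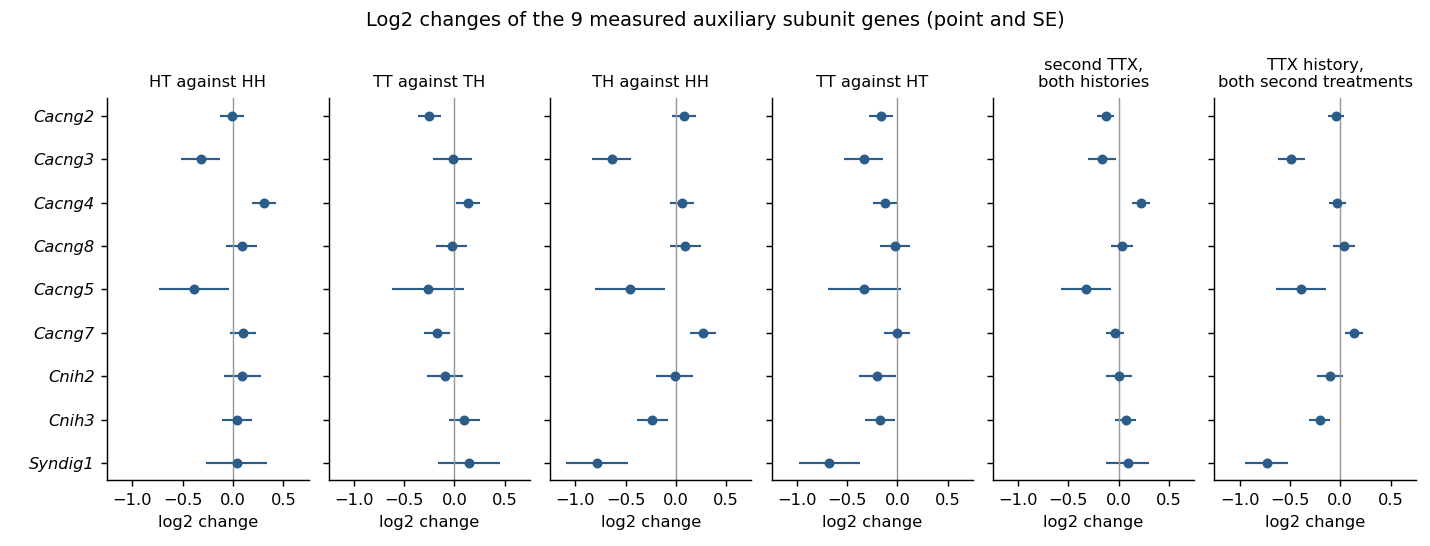
Log2 difference of each of the 9 members (x axis, point) with its standard error (bar) in the 4 pairwise comparisons and in each treatment averaged over the other; positive values are higher in the first-named group, or with TTX. In TT against HT all 9 points lie below 0, and no member passed the adjusted threshold in any panel.

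The test of whether the second TTX acted differently with a history found no member past the threshold, with 4 above and 5 below 0 (51.2% of all genes above) and a smallest unadjusted p of 0.161 in edgeR. The interaction ran from -0.27 ± 0.18 for Cacng7 to 0.30 ± 0.27 for Cacng3 (SE). For Syndig1 it was 0.11 ± 0.43 with a 95% interval of -0.90 to 1.11, which holds a difference of 2-fold on the higher side. For Cacng2 the interval was narrower, -0.60 to 0.12. These comparisons share libraries with each other, HH with both HT and TH, and TT with both as well.

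The pore-forming subunits did not share the members' pattern of TT against HT, in that 2 were above and 2 below 0, with a median of 0.029; the difference between the lists was not tested. Gria1, the subunit GluA1, stood at 1817 and 1793 CPM in TT, 1731 and 2134 CPM in TH, 1535 and 1891 CPM in HT, and 1892 and 2044 CPM in HH. Gria2, whose edited protein makes the channel impermeable to calcium, stood at 794 and 735 CPM in TT, 633 and 815 CPM in TH, 791 and 659 CPM in HT, and 985 and 734 CPM in HH. The HT libraries of Gria1 were both below the HH libraries, by a margin of under 2 CPM, and the other pairwise comparisons of Gria1 overlapped.

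Gria2, Gria3 and Gria4 were highest in HH replicate 1, like the members Syndig1, Cacng3 and Cacng5. Gria3 stood at 218 and 178 CPM in TT, 179 and 235 CPM in TH, 307 and 210.0 CPM in HT, and 427 and 222 CPM in HH. Gria4 stood at 715 and 733 CPM in TT, 651 and 765 CPM in TH, 795 and 671 CPM in HT, and 1309 and 744 CPM in HH. The log2 difference for the history was 0.02 ± 0.13 for Gria1, -0.08 ± 0.13 for Gria2, -0.51 ± 0.23 for Gria3 and -0.28 ± 0.16 for Gria4 (SE, smallest adjusted p = 0.814 in edgeR).

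Of 20 other proteins of the AMPA receptor complex and its biogenesis, 18 had counts, 17 were tested and none passed in any comparison. Their median log2 difference for the history was -0.03, with 7 above and 10 below 0. By smallest p, Vwc2, a secreted BMP antagonist, stood at -0.40 ± 0.17, Lrrtm4, a postsynaptic adhesion protein, at -0.29 ± 0.16 and Cpt1c, which sits in the endoplasmic reticulum with GluA1, at 0.26 ± 0.15. Of the Shisa relatives of Shisa9, Shisa6 was at 179.6 to 238 CPM over the 8 libraries, Shisa7 at 61.4 to 87.6 CPM and Shisa8, on the fewest reads, at 0.56 to 1.83 CPM.

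Of 18 postsynaptic scaffolds and trafficking partners, all were tested and none passed. For the history 6 were above and 12 below 0 with a median of -0.10, close to the members' own median of -0.11, and for TT against HT 6 were above and 12 below. Dlg2, which encodes the scaffold PSD-93, stood at -0.35 ± 0.18 for the history and Nptxr, the neuronal pentraxin receptor, at -0.29 ± 0.15. Excitatory neuron markers were 2 above and 7 below 0 in TT against HT, with a median of -0.24, and their summed level was 1053 to 1320 CPM in TT against 1329 to 1395 CPM in HT. Their part in the members' lower values in TT was not tested. For the history, 2 of 9 excitatory, 3 of 11 inhibitory, 10 of 11 oligodendrocyte lineage, 7 of 10 astrocyte and 3 of 3 microglia markers tested were above 0. So were 3 of 4 relatives of the members and 0 of 16 activity-response genes, and none of these genes passed the threshold in any comparison. All 16 activity-response genes were highest in HH replicate 1. In HH replicate 2 they summed to 464 CPM, inside the range of TH, 456 to 488 CPM.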

How the data were processed

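Nascent RNA was counted per gene symbol in 8 BrU-seq libraries, 2 in each of 4 groups given by the titles. The authors deposited raw read counts. FastQC, Bowtie2, TopHat2, featureCounts and rat build rn6 are named in the submitters' processing notes. Not given in the sources used here were versions, gene annotation, strand setting and whether introns were counted, so overlapping and antisense genes may not be told apart and levels were not compared between genes. Columns were matched to samples through the leading number of the description, and 2 columns that matched no sample were not used.

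Counts were fitted with edgeR 4.0.16 in R 4.3.3: TMM scaling, filterByExpr, 4 group means, 4 residual degrees of freedom, the robust quasi-likelihood test and Benjamini-Hochberg adjustment over 11372 genes at 0.05. The common biological coefficient of variation was 0.128. The standard error is the absolute log2 difference over the square root of F, and draws on the within-group spread of all 8 libraries, moderated over genes. Libraries of one group differed by more than sampling noise (chi-square test), so each counted as 1 sample. Poisson intervals of 95% cover counting error only, and reads carry no molecular identifiers. Alternatives used limma 3.58.1 and DESeq2 1.42.0. The edgeR step was tested on simulated data. Promoters came from RefSeq (GRCr8). Plots used Python 3.11.15 and matplotlib 3.10.9.

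The members and the 10 lists were chosen with earlier results of these data known. All members were named. Of each list up to 3 genes were eligible by smallest p in each averaged effect, the pore-forming subunits all, and the 2 genes nearest in pattern to each of the 3 members with the most reads. A gene that this rule names is not reported here. No batch or date is labelled.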

Additional observations from a re-analysis of the deposited data

How the results depend on the processing

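With 2 libraries a group, the fit of all libraries called no gene in any comparison. Recomputed under 16 settings, 981 member values turned their sign in 57 cases, in 7 of them with the value before or after the turn past its own standard error. No scaling (relative log expression or upper quartile), filter, tool (DESeq2, limma-voom) or choice of groups brought a member past the threshold or gave one of these 7 turns. With the replicate number as a block, the history difference was -0.69 ± 0.15 for Syndig1 and -0.46 ± 0.11 for Cacng3 (SE), and no member or other gene passed. The numbers were not taken as pairing the libraries, since the replicates' deviations correlated at 0.447 between HT and HH but from -0.066 to 0.087 between the other groups.

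Leaving out 1 library at a time, the genes past the threshold ran from 0 to 39 in HT against HH, 0 to 1 in TT against TH, 0 to 121 in TH against HH, 0 to 2 for the interaction, 0 to 8 for the second TTX and 0 to 104 for the history, and stayed at 0 in TT against HT. Without HH replicate 2 they included the members Syndig1 and Cacng3, in TH against HH and for the history, with HH replicate 1 as the only HH library. With all 8 libraries, 16 genes passed for the second TTX with no low-count filter and 13 with DESeq2, none of them members. These turns, some of them to about 0, fell in values that ran, over the libraries left out, from -0.59 to 0.0027 for Cacng3 and -0.37 to 0.60 for Syndig1 in HT against HH, from -0.25 to 0.28 for Cnih2 in TH against HH, from -0.027 to 0.57 for Cacng3 and -0.46 to 0.51 for Syndig1 in the interaction, and from -0.12 to 0.14 for Cnih2 under the second TTX. Without HH replicate 1 and HT replicate 1 together, Cacng8 stood at -0.13 for the history. Under plain library totals, CPM moved by factors of 0.900 to 1.04. The causes were not tested. Depth limits Cacng5 most, at 13 to 22 counts.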

Other observations

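Close relatives of the members outside the AMPA receptor complex were counted as well. Syndig1l, the nearest relative of Syndig1, stood at 14.7 and 15.1 CPM in TT, against 11.6 and 8.42 CPM in HT. Its log2 difference for the history was 0.52 ± 0.20 (SE, adjusted p = 0.814 in edgeR), opposite in sign to that of Syndig1, and neither passed. Cnih1 and Cnih4, cornichons that export other cargo, varied little, at 30.1 to 36.7 CPM and 21.4 to 26.2 CPM over the 8 libraries. Cacng1, which encodes a subunit of the calcium channel of skeletal muscle, was at 0 to 0.80 CPM and was not tested.

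Gene order adds a point of position. In RefSeq's GRCr8 annotation Cacng4 and Cacng5 are neighbours, and so are Cacng8 and Cacng7. Cacng4 had its highest group mean in HT, at 187 CPM, and its neighbour Cacng5 in HH, at 5.87 CPM. Cacng8 and Cacng7 both had theirs in TH, at 103 CPM and 61.3 CPM, but for Cacng8 HT was close, at 102 CPM, and its groups overlapped. None of these differences passed the test.

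The genes whose levels ran most like a member's over the 8 libraries were found by the mean absolute difference in centred log2 CPM, as a description with no test. For Cacng4 they were Anks1a, at 0.032, and Smad1, at 0.033, where the median over all tested genes was 0.188. For Cacng2 they were Glt8d1, at 0.032, and Golgb1, at 0.040, with a median of 0.175. For Syndig1 they were Cdh6, at 0.085, and Scube1, at 0.098, with a median of 0.408.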
